A study of Mus musculus with 10 samples.

Results

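Cytosolic ribosomal protein genes encode the protein components of the 40S and 60S ribosomal subunits. They were taken from the count table by symbol, without symbols marked as pseudogenes. Symbols were Rps or Rpl with a number and at most a letter and a digit after it, or Rpsa, Rplp0, Rplp1 or Rplp2. Members were also selected on a measured value, at least 1000 reads summed over the 10 libraries. Of 55453 genes in the table, 79 met the rule, 32 of the 40S and 47 of the 60S subunit. GENCODE M21 lists 78 of them as protein coding and Rps4l as a transcribed processed pseudogene, and Rpl7l1 is known as an assembly factor of the 60S subunit rather than a protein of the mature ribosome, so the name describes the list with those exceptions. Another 10 symbols matched but fell under the threshold. Just inside it were Rpl23a with 1517 reads, Rpl13a with 1550 and Rpl29 with 1623, and just outside were Rps10 with 867, Rpl24 with 191 and Rpl39l with 154. All 79 passed the filter on low counts, so none was left out of a test.

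The libraries came from microglia of female 3xTg mice, which in both treatment groups carry human APP with the Swedish mutation and MAPT with P301L among their transgenes. By the study's methods these are driven by the neuronal promoter Thy1.2. The animals were retired breeders over 15 months old by the labels. Of the libraries, 5 came from mice given glatiramer acetate (GA), a random copolymer used against multiple sclerosis, at 0.1 mg weekly for about 8 weeks, and 5 from mice given phosphate-buffered saline (PBS). Microglia were sorted as CD45int CD11b+ cells of the hippocampus, and RNA was amplified before library preparation. Titles starting with 388 are all PBS, and those starting with 394 (2 libraries) or 400 (3 libraries) are all GA. What the prefix stands for is not stated, so prefix and treatment cannot be told apart between the groups and could be compared only within GA. No wild-type animals were among the samples. Nothing in the labels ties a library to a separate animal, so p-values measure the spread between these libraries.

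Each ribosome holds a single copy of nearly all of these proteins, which are made in step with each other and with ribosomal RNA. In vertebrates many of their mRNAs begin with a C followed by a run of pyrimidines, the 5′ terminal oligopyrimidine (TOP) motif, through which mTORC1 and Larp1 set how strongly they are translated. Microglia are the resident macrophages of the brain, and mTORC1 signalling and translation in them are known to change with activation. Messenger RNA levels, the quantity measured here, do not show how much of each protein was made.

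Library totals ranged from 32332185 to 38764643 reads. Summed levels of 10 microglial markers ranged from 52424 to 62239 CPM (read counts scaled to a common library size after TMM normalization), and their defining genes P2ry12, Tmem119 and Cx3cr1 were read in every library. Of 5 T cell markers, 0 passed the low-count filter. Neutrophil markers, by contrast, were 7 of 7 lower in GA, with a median log2 fold change of -1.85 and summed levels of 35.6 to 435 CPM in PBS against 9.68 to 162 CPM in GA. Of these, 6 had an unadjusted p under 0.05 in edgeR, against 3.17% of all genes tested in that direction, and 0 passed adjustment. Monocyte markers were 4 of 4 lower, with a median log2 fold change of -1.02 and 2, Ly6c2 and Chil3, at an unadjusted p under 0.05, and summed to 27.8 to 83.6 CPM in PBS and 30.9 to 42.9 CPM in GA. Markers of border macrophages summed to 36.2 to 220 CPM in PBS and 39.5 to 167 CPM in GA, with the highest value in PBS library 388_4. The part of these cell types in the values below was not tested.

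The 79 genes together took between 0.306% and 0.418% of the reads of a library. In CPM the sum was 3363 in PBS library 388_1, 2995 in 388_2, 3446 in 388_3, 4190 in 388_4 and 3855 in 388_5. It was 3321 in GA library 394_1, 3242 in 394_2, 3448 in 400_1, 3535 in 400_2 and 3634 in 400_3. The highest and the lowest sums thus both belonged to PBS, 388_4 standing 1.40-fold above 388_2, and all 5 GA libraries lay between them. For scale, Csf1r, the receptor through which microglia receive survival signals, alone reached 15418 to 18841 CPM. CPM is not corrected for gene length, so this compares shares of reads and not numbers of transcripts. PBS averaged 3570 CPM ± 462 (SD, n = 5) and GA 3436 CPM ± 158 (SD, n = 5). The mean of GA was 96.3% of that of PBS, a gap smaller than the SD within PBS. Without 388_4 PBS averaged 3415 CPM, below GA, and without 388_2 it averaged 3714 CPM, above GA.

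**Figure D1:**
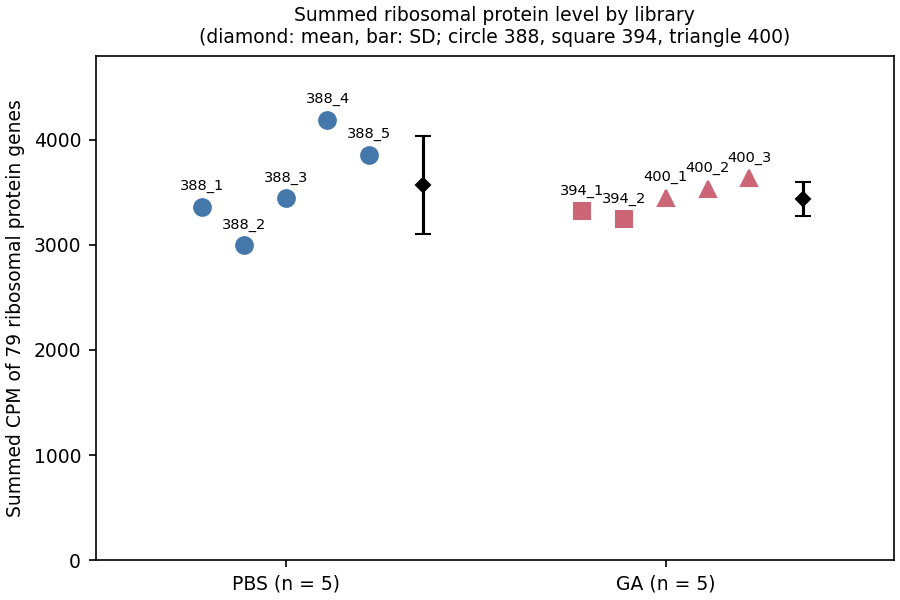
Summed CPM of the 79 ribosomal protein genes (y axis) in each PBS and GA library (x axis), with the mean and SD of each group as a diamond and bar and the title prefix shown by the symbol. PBS spans 2995 to 4190 CPM and encloses the 5 GA libraries at 3242 to 3634 CPM.

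Levels of different members were compared per length as TPM, computed from the counts and the exon length of each gene. They ranged from 7.08 TPM for Rpl13a to 429 TPM for Rpl4, with a median of 58.2 TPM against 14.7 TPM over 14352 tested genes with a length. These levels bear on the threshold of the rule and carry no test. Rpl4, a 60S protein that lines the exit tunnel, stood first on exon length and lay between 387 and 458 TPM in all libraries. Rplp1, an acidic protein of the stalk that recruits elongation factors, followed with 328 TPM (range 266 to 393), then Rpl32 with 267 TPM (213 to 318) and Rps3a1 with 256 TPM (221 to 318). The ranges of these last 3 genes overlapped, so their order does not exceed the spread between libraries, while that of Rpl4 overlapped with the top of Rplp1.

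At the low end, Rpl13a, known to leave the ribosome and silence inflammatory mRNAs in myeloid cells exposed to interferon-gamma, lay between 5.96 and 10.3 TPM. Rps15a had 9.16 TPM (7.54 to 10.9), Rpl30 11.6 TPM (8.74 to 16.4), Rpl29 13.8 TPM (10.4 to 16.0) and Rpl22l1, a paralogue of Rpl22, 14.0 TPM (8.80 to 16.2), the range of each overlapping with that of the next. The mean levels of the 79 mRNAs spanned 60.6-fold. Part of the order rests on the length used: with the length of the principal transcript in place of all exons, Spearman's rho between both rankings of the 79 genes was 0.872, and Rps24 went from 19.3 to 74.7 TPM. Both ends of the order changed as well: Rps9 (700 TPM) and Rpl13 (641 TPM), named here after their values were seen, then stood above Rpl4 (560 TPM), and Rps15a (11.1 TPM) below Rpl13a (14.3 TPM).

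Ribosomal protein genes have left many processed pseudogenes in mammalian genomes, and a read from a stretch that is identical in gene and copy cannot be placed. Exact copies of 100-base windows, the read length, were therefore searched in all other annotated transcripts. A median of 31.1% of a member's windows had such a copy, from 0 for 6 members (among them Rpl22, Rpl32, Rps21, Rps27l and Rps3) to 98.4% for Rps27, and 25 of 79 were above 50%. Rps6, the 40S protein phosphorylated by S6 kinase, is shown as an example because its entire coding sequence of 750 bases recurs without a difference in the pseudogene Rps6-ps4. The window below, coding bases 1 to 100 on the minus strand of chromosome 4 (GENCODE M21, GRCm38), would give the same read from either, and carries no capitals because no base differs:
Rps6: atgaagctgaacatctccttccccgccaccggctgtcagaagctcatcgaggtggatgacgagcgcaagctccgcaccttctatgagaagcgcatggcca

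Despite this, 17594 reads were counted for Rps6 and 21 in all for Rps6-ps4. How reads with several matches were handled is not given in the sources used here. Across the 79 genes the share of copied windows and the TPM had a Spearman's rho of -0.063, a description over genes that share libraries. The median was 61.2 TPM for the 25 members above 50% and 57.9 TPM for the other 54. Of the exon bases, at least 20% lay within another annotated gene for 9 members, among them Rpl13a with 35.4%, Rpl23a with 62.3% and Rpl35 with 66.2%, whose counts are uncertain for that reason.

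**Figure D2:**
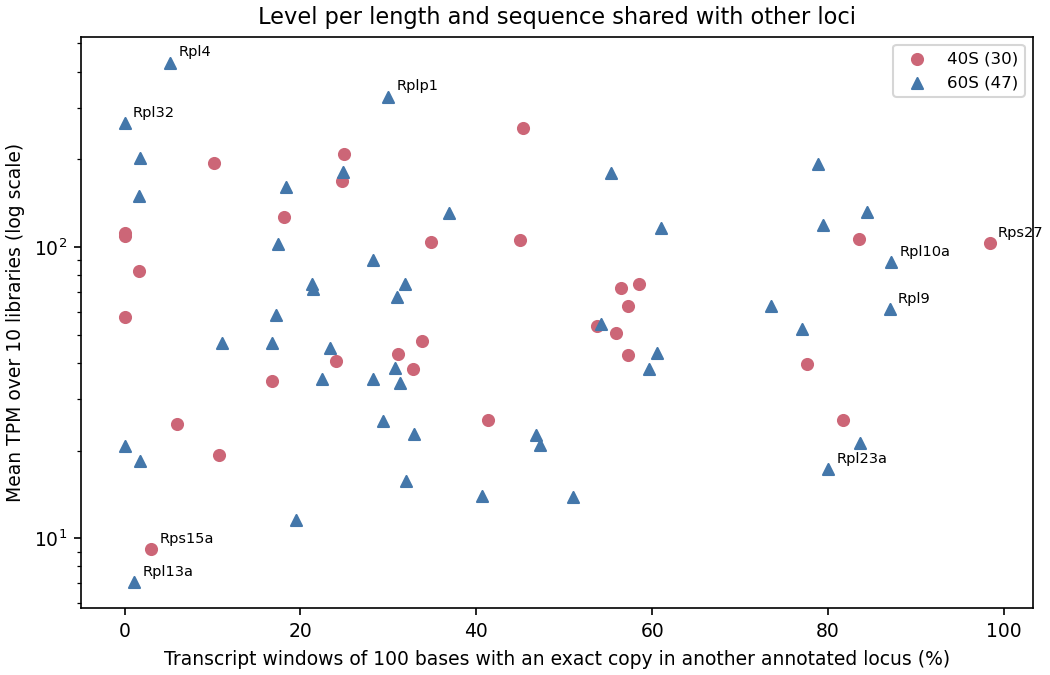
Mean TPM of 77 members over 10 libraries (y axis, log scale) against the percentage of their 100-base transcript windows that recur exactly in another annotated locus (x axis), with 40S members as circles and 60S members as triangles. Both extremes, Rpl13a at 7.08 and Rpl4 at 429 TPM, lie at low shares, members above 50% run from 13.8 to 193 TPM, and Rps27 lies farthest right at 98.4%.

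RefSeq promoter entries of the build GRCm38.p6 matched 58 of the 79 genes. A TOP-like run was defined as a C within 10 bases of the annotated start on either side, on the coding strand only, followed by at least 4 further C or T bases. It was found for 35 of 58 members (60.3%) and for 9297 of 27025 genes of the table (34.4%). With at least 7 further bases, a stricter setting added afterwards, the shares were 39.7% and 9.43%. The match describes letters at an annotated start, not a measured start site. Windows of 25 bases before and 15 from the start are printed for members of lowest p on either side of the GA comparison that have an entry, and for Rps6, with the run in capitals:
Rps24: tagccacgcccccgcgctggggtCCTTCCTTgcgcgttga
Rpl13a: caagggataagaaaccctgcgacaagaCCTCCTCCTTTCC
Rpl12: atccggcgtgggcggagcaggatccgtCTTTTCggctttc
Rpl36a: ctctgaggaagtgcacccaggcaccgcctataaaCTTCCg
Rpl27a: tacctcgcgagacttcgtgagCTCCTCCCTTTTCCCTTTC
Rps6: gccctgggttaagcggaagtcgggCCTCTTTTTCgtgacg
Rps4x: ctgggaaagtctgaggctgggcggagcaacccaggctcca
Rpl27: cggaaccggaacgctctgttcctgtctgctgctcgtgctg
Rps16: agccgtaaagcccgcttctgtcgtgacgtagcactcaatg

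The windows lie on GRCm38.p6 at chr14:24490653-24490692 for Rps24, chr7:45128731-45128770 for Rpl13a, chr2:32961687-32961726 for Rpl12, chrX:134585629-134585668 for Rpl36a, chr7:109519170-109519209 for Rpl27a, chr4:86857353-86857392 for Rps6, chrX:102189377-102189416 for Rps4x, chr11:101442220-101442259 for Rpl27 and chr7:28350664-28350703 for Rps16. Rpl13a, Rps6 and Rps4x are on the minus strand. Runs of 5 to 20 letters stood at the first 6 windows, those of Rpl13a and Rpl27a going on past the end, and none met the definition in Rps4x, Rpl27 and Rps16. Rps24 has a further annotated start, whose window held no run. Rpl10a, also on the higher side, has a pair of entries with a run of 7 bases in the window of the upstream start only:
Rpl10a: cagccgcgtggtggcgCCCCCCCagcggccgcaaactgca

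This window is at chr17:28328446-28328485 on the plus strand, GRCm38.p6. On the lower side 1 of 4 members with an entry thus held the run and on the higher side 5 of 5 did at some start, numbers too small and too selected to compare.

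The comparison of GA with PBS asks whether 8 weeks of treatment changed ribosomal protein mRNA in hippocampal microglia. No member passed the test in edgeR's quasi-likelihood fit at an adjusted p under 0.05, where 0% of 14481 genes did, and none had an unadjusted p under 0.05 either, where 2.58% of genes were higher and 3.17% lower. By sign alone, 68 of 79 were lower in GA (86.1%), against 49.9% of all genes. Differences were small: the median log2 fold change was -0.07 (all genes 0.00), and the members ran from -0.22 to 0.20. In no member did the GA libraries all lie below or all above the PBS libraries, against 0.456% and 0.435% of genes. The 95% confidence interval of a member's log2 fold change had a median half-width of 0.25 (0.15 to 0.41), and no interval reached beyond -0.53 or 0.58, so larger changes of single members lie outside these intervals. DESeq2 called 0 of the 79 as well, against 0.0106% of 18894 genes.

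The count of lower members depended on PBS library 388_4, and their median on the PBS libraries at both ends of the range. Without 388_4, 33 of 79 were lower and the median log2 fold change was 0.01. Leaving out PBS library 388_2 in its place, the lowest of all, left 68 lower with a median of -0.14, and 5 members (6.33%) were then lower at an unadjusted p under 0.05, against 3.41% of the genes in that fit, and none passed after adjustment. Without both, 62 of 79 were lower with a median of -0.05. Since the members moved together from library to library, the 79 signs are not independent observations.

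**Figure D3:**
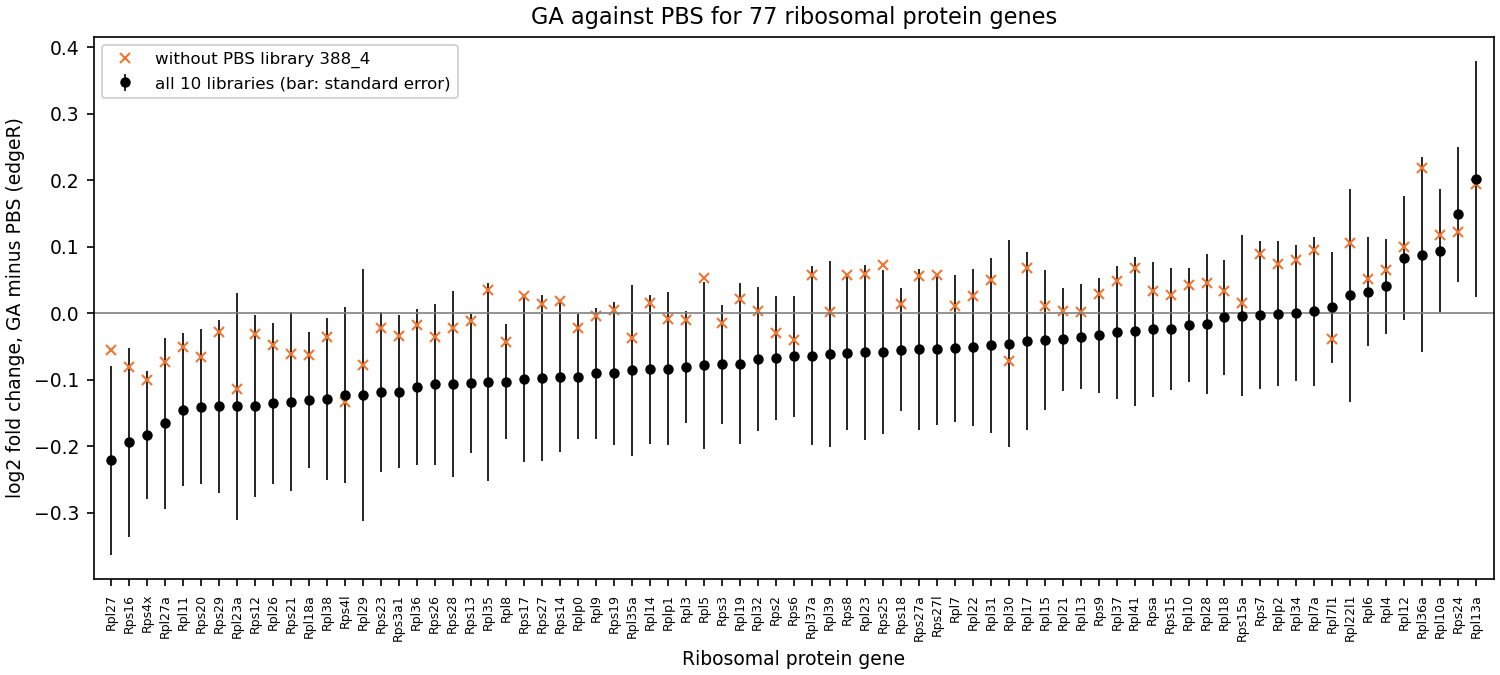
edgeR log2 fold change of 77 members in GA against PBS (y axis), ordered by value (x axis), with its standard error, and the same value without PBS library 388_4 as a cross. With all libraries 66 of the 77 points lie below 0, and without 388_4 32 do.

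Among 40S proteins, 31 of 32 were lower in GA by sign and the median log2 fold change was -0.10. Rps4x, the X-linked form of a protein of the small subunit's body (chrX:102184941-102189394, minus strand, GRCm38), had the smallest p of all members. It measured 49.7, 45.6, 49.1, 65.1 and 56.0 CPM in PBS libraries 388_1 to 388_5, and 43.6, 43.7, 49.2, 47.9 and 49.3 CPM in GA libraries 394_1, 394_2, 400_1, 400_2 and 400_3. PBS libraries 388_2 and 388_3 lay within the range of GA, and the other 3 stood above every GA library. The log2 fold change was -0.18 (SE 0.10), with p = 0.0768 and an adjusted p of 0.894 in edgeR, and a two-sided exact permutation test of log2 CPM gave p = 0.103, where the design allows no value below 0.00794. Without 388_4 the change was -0.10.

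Rps16, whose tail contacts the tRNA in the P site, read 16.6, 14.2, 17.3, 24.7 and 22.0 CPM in PBS and 15.5, 14.5, 17.2, 18.01 and 17.5 CPM in GA, in the same order of libraries, a log2 fold change of -0.19 (SE 0.14, edgeR adjusted p = 0.910) that became -0.08 without 388_4. GA lay within the range of PBS, and only 388_4 and 388_5 exceeded it. Rps6 averaged 51.0 CPM ± 5.65 in PBS and 48.7 ± 4.23 in GA (SD, n = 5 each), and Rpsa, also known as a laminin receptor at the cell surface, 40.3 ± 5.73 and 39.6 ± 3.08 CPM, both differences within the spread.

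Rps24, a 40S protein mutated in some patients with Diamond-Blackfan anaemia (chr14:24487125-24496959, plus strand), was the exception in direction. Its level was 31.0, 36.7, 39.7, 31.0 and 29.4 CPM in PBS and 33.2, 34.5, 40.3, 37.4 and 40.5 CPM in GA. All 5 GA libraries exceeded the PBS median, and the groups overlapped in 388_2 and 388_3. The log2 fold change of 0.15 (SE 0.10) had p = 0.162 and an adjusted p of 0.896 in edgeR, an exact permutation p of 0.143, and a value of 0.12 without 388_4.

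Among 60S proteins, 37 of 47 were lower by sign and the median log2 fold change was -0.05. Rpl27 (chr11:101442298-101445529, plus strand) had the lowest value of all, -0.22 (SE 0.14, edgeR adjusted p = 0.895). Its levels were 20.2, 16.1, 18.4, 30.2 and 20.3 CPM in PBS and 18.5, 17.8, 18.5, 18.3 and 17.2 CPM in GA. A single PBS library, 388_4, stood far above the rest, and without it the change was -0.05. Rpl27a averaged 19.6 CPM ± 3.20 in PBS and 17.5 ± 2.31 in GA (SD, n = 5 each). Its log2 fold change was -0.17 (SE 0.13, edgeR adjusted p = 0.912), and -0.07 without 388_4.

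In the stalk that brings elongation factors to the ribosome, no member passed the test. Rplp0, which anchors it, averaged 81.4 CPM ± 12.6 in PBS and 76.2 ± 2.93 in GA, Rplp1 49.6 ± 9.42 and 46.8 ± 2.68, and Rplp2 35.5 ± 5.83 and 35.5 ± 2.24 (SD, n = 5 each). Rpl12, the protein at its base, was 23.3 CPM ± 1.504 in PBS and 24.7 ± 2.47 in GA, with a log2 fold change of 0.08 (SE 0.09). The SD of PBS exceeded the gap between the means for each of these 4. Rpl5 and Rpl11, which with 5S RNA form the particle that can bind Mdm2 and stabilise p53, had log2 fold changes of -0.08 (SE 0.13) and -0.15 (SE 0.12), with edgeR adjusted p of 0.960 and 0.917. Without 388_4 they were 0.05 and -0.05.

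Rpl13a (chr7:45125558-45128761, minus strand) had the highest log2 fold change, 0.20 (SE 0.18, edgeR adjusted p = 0.928), at low counts. It measured 4.29, 3.88, 4.31, 3.997 and 3.94 CPM in PBS and 4.29, 6.23, 4.42, 4.82 and 3.73 CPM in GA. GA held both the highest value, in 394_2, and the lowest, in 400_3. Rpl10a, which forms the mobile L1 stalk, read 70.0, 59.6, 63.6, 65.4 and 48.2 CPM in PBS and 68.7, 62.7, 69.9, 63.5 and 62.8 CPM in GA, a log2 fold change of 0.09 (SE 0.09, edgeR adjusted p = 0.940). GA lay within PBS, whose library 388_5 was lowest and 388_1 highest. Rpl36a, with 9.996 CPM ± 2.07 in PBS and 10.6 ± 0.98 in GA (SD, n = 5 each), had a value of 0.09 (SE 0.15), which was 0.22 without 388_4.

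Variation between libraries was common to most members. PBS library 388_4 held the highest CPM of the 10 for 62 of 79 genes and 388_2 the lowest for 57. The median member stood 0.32 log2 units above its own mean in 388_4, 0.15 above in 388_5 and 0.25 below in 388_2, while the median of all genes stayed within 0.02 of 0 in every library. Among GA libraries the median member was at -0.08 in 394_1, -0.11 in 394_2, -0.01 in 400_1, 0.02 in 400_2 and 0.06 in 400_3. The median correlation over 3081 pairs of members was 0.772 across the 10 libraries, against -1e-04 for 10580 genes at or above the same count threshold. It was 0.784 after group means were removed, 0.651 without 388_4 and 0.507 without 388_4 and 388_2. These correlations share libraries and are given without a test. The SD of a member's log2 CPM was 0.10 to 0.25, with a median of 0.18 against 0.17 for the genes at the threshold. Rpl29, Rpl27 and Rps16 had the largest SD, 0.25 each.

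**Figure D4:**
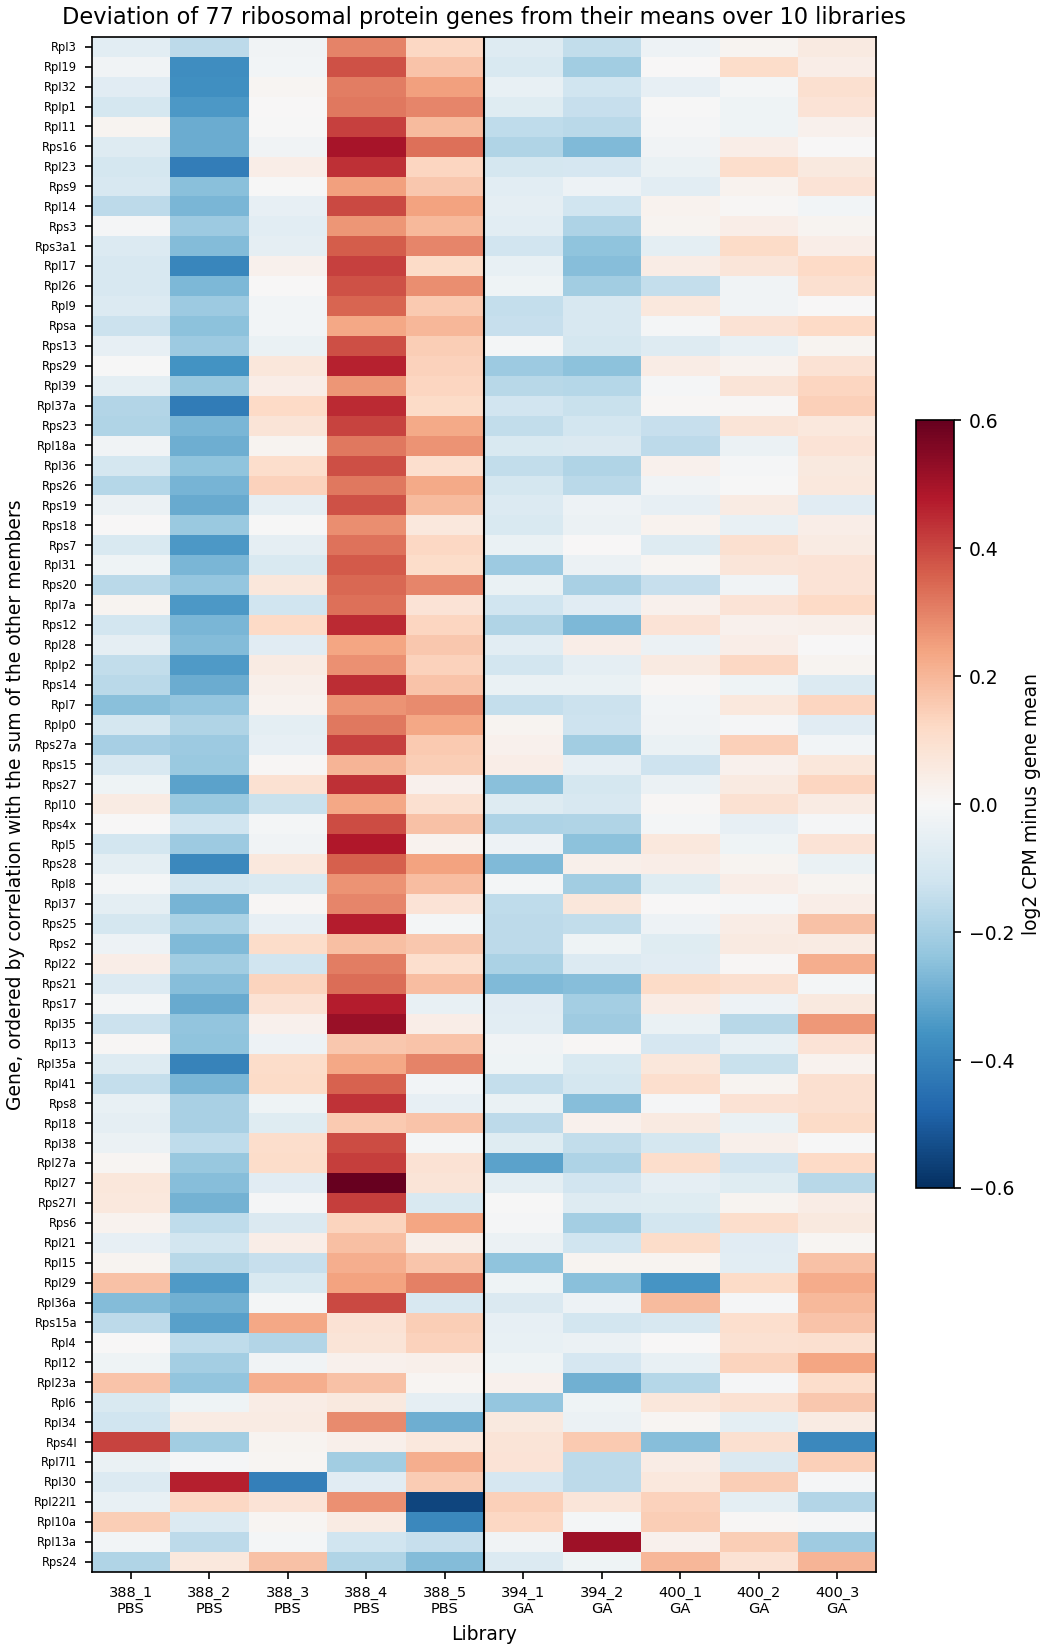
Deviation of log2 CPM from the mean of each of 77 members (rows, ordered by correlation with the sum of the other members) in each of the 10 libraries (columns), with red above and blue below the mean and colours ending at 0.6 in either direction. Nearly all rows are red in PBS 388_4 and blue in PBS 388_2, and the rows at the bottom, from Rpl34 to Rps24, depart from this in some or all libraries.

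For 60 of 79 genes, Pearson's r with the summed CPM of the others was above 0.8. It was below 0.5 for 9 genes: Rps24 (-0.37), Rpl13a (-0.31), Rpl10a (-0.24), Rpl22l1 (-0.23), Rpl30 (-0.23), Rpl7l1 (-0.06), Rps4l (near 0), Rpl34 (0.16) and Rpl6 (0.33). These values describe 10 libraries and follow the course set by 388_4 and 388_2. Of the 9 genes, 2 were lower in GA by sign, and of the other 70, 66 were. Rpl30, which binds its own transcript in yeast, read 9.58, 14.0, 7.60, 9.67 and 11.3 CPM in PBS and 9.47, 9.09, 10.6, 11.3 and 10.1 CPM in GA. Its highest value came from 388_2, the library in which 57 members were lowest. Rpl22l1 was lowest in 388_5 at 5.47 CPM, against 7.80 to 9.76 CPM in the other PBS libraries and 7.13 to 8.90 CPM in GA.

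Within GA, libraries with the prefix 400 were compared with those with 394 to see how far an unlabelled difference among treated samples reached these genes. By sign 71 of 79 members were higher in 400, against 51.4% of all genes, with a median log2 fold change of 0.13 (all genes 0.01). None passed adjustment, where 0.0138% of genes did, and 1 had an unadjusted p under 0.05, against 2.27% of genes higher in 400. That gene was Rpl6, a 60S protein, with 42.6 and 49.3 CPM in 394 against 52.5, 53.4 and 56.1 CPM in 400. The log2 fold change was 0.23 (SE 0.11, edgeR adjusted p = 0.890). Rps21, a short 40S protein, read 11.3 and 11.4 CPM in 394 against 14.7, 14.5 and 13.5 CPM in 400, a log2 fold change of 0.33 (SE 0.18, edgeR adjusted p = 0.977). Rpl27a and Rps29 had 0.29 and 0.28 and Rps4l -0.28, none of them passing in edgeR.

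The median log2 fold change between the GA prefixes, 0.13, stood beside -0.07 between treatments, and the difference in size was not tested. Against PBS, the 394 libraries alone gave 73 of 79 lower with a median of -0.15, and the 400 libraries alone 49 of 79 lower with a median of -0.02. Both use the same 5 PBS libraries. In summed CPM, 394 averaged 3282 ± 56.2 (SD, n = 2) and 400 averaged 3539 ± 93.3 (SD, n = 3), both within the PBS range. Neutrophil markers were 7 of 7 lower in 400 (median log2 fold change -1.17) and border macrophage markers 5 of 5 higher (median 1.04), and their part in the shift was not tested. Genes of the mitochondrial genome were 12 of 12 higher in 400 (median 0.18), and translation factors and other TOP mRNAs 21 of 23 (median 0.10). Of the 14 genes of mTORC1 and Myc control listed further on, 11 were higher, 2 (Tsc1 higher and Myc lower) had an unadjusted p under 0.05, and Myc, a transcription factor known to drive ribosome production, passed adjustment. It read 146 and 166 CPM in 394 against 69.7, 71.1 and 58.5 CPM in 400, a log2 fold change of -1.23 (SE 0.14, edgeR adjusted p = 0.00845), opposite in sign to the members.

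Several ribosomal proteins have a paralogue that can take their place in some tissues, and their mRNAs can be told apart here where the sequences differ. Rps27 and Rps27l, the latter known as a p53 target, are shown because both were well read and similar in level. Their coding sequences of 255 bases were identical at 194 positions (76.1%) and shared no window of 100 bases. Coding bases 1 to 100 are printed from GENCODE M21 (GRCm38), Rps27 from the minus strand of chromosome 3 and Rps27l from the plus strand of chromosome 9, with the 25 differing bases in capitals:
Rps27: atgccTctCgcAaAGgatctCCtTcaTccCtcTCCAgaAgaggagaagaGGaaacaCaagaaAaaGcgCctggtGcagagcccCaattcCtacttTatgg
Rps27l: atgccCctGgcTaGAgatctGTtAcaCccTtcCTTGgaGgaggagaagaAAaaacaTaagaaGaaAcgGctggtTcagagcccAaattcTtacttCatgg

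Rps27 averaged 103 TPM and Rps27l 109 TPM over the 10 libraries on exon length, and 312 and 178 TPM on the length of the principal transcript, so their order depends on the length used. Of the windows of Rps27, 98.4% recurred elsewhere, mostly in Rps27rt, which received 57 reads, and none of those of Rps27l did. Against PBS the log2 fold changes of Rps27 and Rps27l in GA were -0.10 (SE 0.12) and -0.05 (SE 0.11), and 0.01 and 0.06 without 388_4. Both genes were highest in 388_4, at 42.5 and 34.6 CPM, and lowest in 388_2, at 25.1 and 21.3 CPM.

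Rpl22 and Rpl22l1 were identical at 70.2% of aligned coding bases. Their levels were 20.7 and 14.0 TPM on exon length and 29.4 and 50.3 TPM on transcript length, again with the order exchanged. Rpl22 went from 15.2 CPM in 388_2 to 21.8 CPM in 388_4 with the other members, and Rpl22l1 did not follow them. Rpl7 had 90.4 TPM and the assembly factor Rpl7l1 150 TPM, or 209 and 201 TPM on transcript length, with 59.9% of aligned coding bases identical. Rpl36a and Rpl36al, the closest of the aligned pairs with 87.9%, had 21.2 and 13.6 TPM, or 72.5 and 35.0 TPM on transcript length. Rps4x and Rps4l, which were not aligned, had 104 and 83.0 TPM, or 174 and 83.0 TPM on transcript length. The paralogues known from testis or striated muscle were nearly or wholly unread: Rpl10l had 0 reads in 10 libraries, which allows up to 3, Rpl3l 100 and Rpl39l 154, against 28152 for Rpl10, 39056 for Rpl3 and 2750 for Rpl39.

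Related gene lists were set beside the members, each described by its count and median log2 fold change in GA. No gene of these lists passed the edgeR test at an adjusted p under 0.05. Over all 14481 genes, 50.1% were higher and 49.9% lower by sign, and 2.58% were higher and 3.17% lower at an unadjusted p under 0.05. Of 23 translation factors and other genes with TOP mRNAs, 14 were lower with a median of -0.03 (range -0.11 to 0.14), and their median correlation with the members over pairs was 0.674. They stood at 0.25 log2 units above their means in 388_4 and 0.20 below in 388_2, following the members. Of 77 mitochondrial ribosomal proteins, which build the separate ribosome of the mitochondrion, 40 were higher and 37 lower (median 0.00, with 3 higher and 1 lower at an unadjusted p under 0.05), and their median correlation with the members was 0.160. Factors of ribosome assembly were 19 of 29 higher (65.5%, median 0.07), with 3 at an unadjusted p under 0.05: Nop58, a protein of small nucleolar particles, at 0.27 (SE 0.10), Sbds, which helps release Eif6 from the new 60S subunit, at 0.23 (SE 0.09), and Ltv1, an assembly factor of the 40S subunit, at 0.21 (SE 0.09). In edgeR their adjusted p were 0.847, 0.854 and 0.854. In 388_4, where the members were highest, the median deviation of the assembly factors was at its lowest, -0.12. Their summed level was lowest in 388_2, at 1572 CPM against 1580 CPM in 388_4.

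Of 14 genes of the mTORC1 and Myc control of ribosomal protein synthesis, 9 were higher and 5 lower (median 0.04), and only Max, the partner of Myc, had an unadjusted p under 0.05, with a log2 fold change of 0.40 (SE 0.16, edgeR adjusted p = 0.854). Genes of the mitochondrial genome were 11 of 12 lower in GA, with a median of -0.13 and 0 at an unadjusted p under 0.05, and their summed level was highest in 388_4 and 388_5, at 1806 and 1832 CPM, against 1270 to 1529 CPM in the other 8 libraries. These 2 PBS libraries were also the highest in summed ribosomal protein level. Of 305 ribosomal protein pseudogenes by symbol, 19 passed the low-count filter, 10 lower and 9 higher, and all 305 summed to no more than 26.8 CPM in any library.

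**Figure D5:**
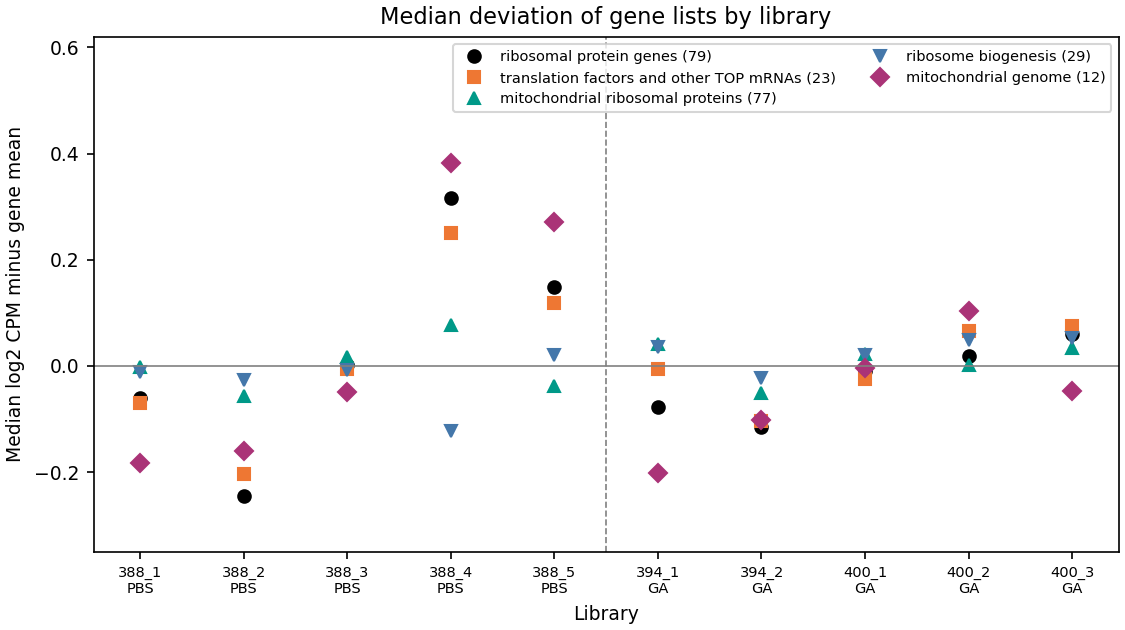
Median deviation of log2 CPM from gene means (y axis) for the 79 ribosomal protein genes, 23 translation factors and other TOP mRNAs, 77 mitochondrial ribosomal proteins, 29 assembly factors and 12 mitochondrial genome genes in each library (x axis). In PBS 388_4 the ribosomal protein genes are at 0.32 and the translation factors at 0.25, while the assembly factors are at -0.12.

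Some ribosomal components carry symbols that the rule does not match and fell outside it. Fau, a ubiquitin-like protein fused to a 40S protein, had a log2 fold change of -0.11 (SE 0.14) in GA and an r of 0.973 with the members' sum. Rack1, a 40S scaffold that binds kinase C, had -0.03 (SE 0.09) and an r of 0.810. Rpl36al, a paralogue of Rpl36a whose suffix the rule does not match, had -0.06 (SE 0.16) and an r of 0.076, so it did not follow the members. Among the matching symbols under the threshold, Rps10 had 71, 84, 98, 72 and 39 reads in PBS and 91, 86, 114, 98 and 114 reads in GA, a log2 fold change of 0.38 (SE 0.27) with overlapping groups, and 28.7% of its exon bases lie within other annotated genes.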

How the data were processed

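RNA of sorted hippocampal microglia was sequenced by the study in 10 libraries as single-end 100-base reads. As deposited, the values are unnormalized read counts for each gene, made by the authors. The submitters' processing notes name bcl2fastq 2.19.0, fastp 0.20.0, STAR 2.7.0f, Subread 1.6.4 and the build GRCm38.p6. Annotation, strand setting and the handling of reads with several matches are not given in the sources used here.

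Libraries were grouped by the treatment label, and 0 columns were left without a sample. Genes were filtered with filterByExpr (minimum count 10), scaled by TMM and tested with edgeR 4.0.16 (limma 3.58.1, R 4.3.3) by the quasi-likelihood test with Benjamini-Hochberg adjustment over 14481 genes at 0.05. DESeq2 1.42.0, limma-voom and the other settings of the closing section were alternatives. On simulated counts for GA against PBS, edgeR recovered 163 of 200 genes changed by 1 log2 unit among 14481, with 5 false calls. That change is larger than any seen in the members, and recovery of smaller changes was not simulated. Log2 CPM used a pseudocount of 0.1, and exact permutation tests ran over 252 arrangements. The title prefix was compared in the same 10 libraries. TPM used exon lengths of GENCODE M21. Copied windows were searched in the annotated transcripts, pseudogenes included, and not in the genome, which was not used here. Pearson correlations used log2 CPM.

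Named members were the 5 of lowest p in each direction, the 5 of lowest p between prefixes, the 5 highest and lowest by TPM, the 3 largest SD, the 3 on each side of the count threshold, paralogue pairs, the stalk, the 5S particle, Rps6, Rpsa and ribosomal genes outside the rule. Values of some genes named by this rule are not reported here, and 2 members are left out of the plots of single genes. Rpl30 and Rpl22l1 by library, and the genes of the other lists, were chosen after their values were seen. Members and lists were chosen with earlier results of these data known.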

Additional observations from a re-analysis of the deposited data

How the results depend on the processing

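The absence of members at an adjusted p under 0.05 held in all 22 alternatives for GA against PBS and in all 7 for the prefixes, while the count of lower members did not hold. Under scaling, filter, GC and tool alternatives 64 to 70 of 79 were lower (median log2 fold change -0.07 to -0.05). Leaving out single libraries gave 33 to 72 lower, medians of -0.14 to 0.01, 0 to 1 members higher and 0 to 5 lower at an unadjusted p under 0.05, against 1.96% to 3.82% and 2.08% to 4.19% of genes. The fewest lower (33) and the highest median came without 388_4, the most lower (72) without 400_3, the lowest median and the 5 lower members without 388_2, and the 1 higher without 388_3. Log2 ratios of the group means of summed CPM then ran from -0.11 to 0.01. For the prefixes, 0 to 1 members had an unadjusted p under 0.05 without single GA libraries (3.94% to 5.92% of genes) and 6 (7.59%) in the 5 GA libraries alone, where 10.1% of 15076 genes did. With the title number as a replicate block, 8 of 79 were lower (median 0.09) and 1 was higher at an unadjusted p under 0.05, against 3.57% of genes. Title numbers 4 and 5 occur in PBS alone, so 388_4 and 388_5, the highest in summed level, add nothing to the comparison in that fit. Correlations of same-numbered libraries' deviations were 0.03, -0.06 and 0.12, and 1 of 5 GA libraries correlated best with its own number. The labels do not say what the number means, so these values cannot decide whether it pairs samples. Leaving out 388_2 and 388_4 together was added after seeing the data. At 5 libraries per group, the unadjusted 95% interval of a member's log2 fold change had a half-width of 0.15 to 0.41.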
